A study of Homo sapiens with 6 samples.

Results

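Dense groups of CEBPB peaks are stretches of the genome in which 3 or more listed binding sites of this transcription factor follow each other with less than 5 kb between the end of one and the start of the next. They were chosen by the measured positions in the Calu-3 CEBPB peak list alone, on the 22 autosomes. Of the 67686 autosomal CEBPB peaks, 6928 (10.2%) fell into 2045 such groups, 14822 (21.9%) lay in pairs and 45936 (67.9%) stood alone. The groups were divided by position. Those within 2 Mb of the centromere of their chromosome, read from the stretch free of any listed peak, numbered 98 with 418 peaks, and the other 1947 groups with 6510 peaks lay away from centromeres. Satellite repeats elsewhere could not be told from other sequence, because no hg19 repeat or gene annotation was used here. Regions are therefore given by hg19 position, with no gene, exon or repeat assigned to them.

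CEBPB is a basic leucine zipper transcription factor that binds DNA as a dimer with itself or with other members of its family. It is known for the control of acute-phase, inflammatory and differentiation genes, and in airway epithelium for cytokine and stress responses. Peaks of one factor that lie close together can mark a regulatory region with several binding sites, while sequence beside centromeres is rich in repeats, to which short reads are hard to assign. KLF5, the other factor profiled, is a Krüppel-like zinc finger protein of epithelial cells.

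Chromatin immunoprecipitation followed by sequencing was performed on CEBPB and KLF5 in Calu-3, a line derived from a lung adenocarcinoma, and on KLF5 in 16HBE14o-, an immortalised bronchial epithelial line. All cells were grown in DMEM with 10% FBS, and the labels named no treatment, genetic change or time point. Each of the 3 groups of 2 samples was deposited as 1 peak list made from both samples, so no value below carries an error between samples and no p-value is given. Both CEBPB samples shared 1 commercial antibody, whereas the antibody differed between the 2 Calu-3 KLF5 samples, and 1 of these antibodies was also used for both 16HBE14o- samples. The intervals in parentheses are exact (Clopper-Pearson) 95% binomial intervals that cover counting error only. Peaks of the same group share their surroundings and are not independent, so these intervals are too narrow. The lists used here carry peak values and not reads, so the sequencing depth behind them is unknown.

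Most dense groups were small. Away from centromeres, 1488 of the 1947 groups (76.4%) held 3 peaks, 328 held 4 and 131 held 5 or more, up to 10. Near centromeres, 58 of the 98 groups (59.2%) held 3 peaks and 22 held 5 or more, and the 2 largest held 18 and 29. A group away from centromeres spanned a median of 5334 bp (quartiles 3599 to 7216, range 563 to 24486), and the 6510 peaks covered 1180 kb of the 10841 kb spanned. Successive peaks were separated by a median of 1948 bp away from centromeres and 1432 bp near them. No 2 peaks of the autosomal list overlapped, but gaps under 1 kb made up 31.3% of those away from centromeres, and whether neighbouring peaks were parts of 1 wider region was not tested. At the limit of the rule, the widest gap inside a group was 4999 bp and the narrowest outside was 5002 bp, 708 gaps inside lay between 4 and 5 kb, and 483 further runs of 3 or more peaks were missed through a gap of 5 to 6 kb.

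**Figure D1:**
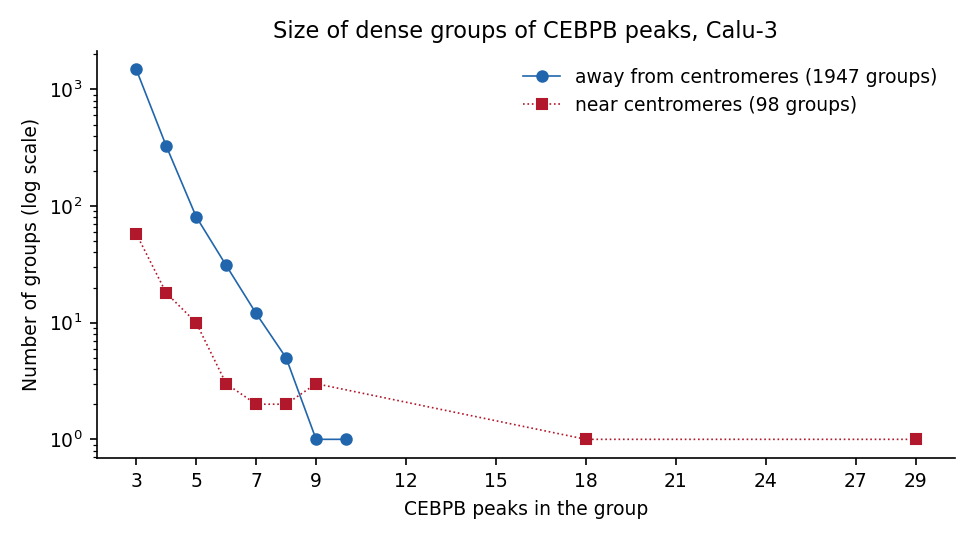
Number of dense groups (vertical axis, log scale) against the number of CEBPB peaks they hold (horizontal axis), for groups away from (circles) and near (squares) centromeres. Counts away from centromeres fall from 1488 groups of 3 to 1 group of 10, whereas the groups near centromeres reach 29 peaks.

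The deposited signal of a peak, whose normalization was not given in the sources used here, came from the same list as the rule and is given as a description. It had a median of 3.22 in the dense groups away from centromeres and 3.17 in the lone and paired peaks there. The dense peaks near centromeres had a median of 2.89, which corresponds to percentile 29.1 of the list, against 52.5 for the dense peaks away from them. A q-value of 0.05 or less was given to 3280 of the 6510 dense peaks away from centromeres (50.4%, 49.2 to 51.6). The share was 52.6% (47.7 to 57.5) for the dense peaks near centromeres and 46.1% for all autosomal CEBPB peaks. The top 10% of the list by signal held 828 dense peaks away from centromeres (12.7%, 11.9 to 13.6), 13 near them (3.11%, 1.67 to 5.26) and 9.92% of all autosomal peaks. These shares differed little between groups of 3 (12.5%), of 4 (13.6%) and of 5 or more peaks (12.7%), and the median signal was 3.22 in each of these sizes. Pairs of peaks lay between lone peaks and groups of 3, with 11.1% in the top 10% against 9.20% for lone peaks.

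Inside a group the peaks were often unequal. Away from centromeres, the strongest peak of a group had a median signal of 3.97 and the remaining peaks 3.06, and the ratio of the highest to the lowest signal had a median of 1.52. The ratio was under 1.5 in 947 groups (48.6%) and over 3 in 283 (14.5%), and it reached 22.1. Near centromeres only 3 of the 98 groups (3.06%) had a ratio over 3. Away from centromeres the q-value was at most 0.05 for every peak in 307 groups (15.8%), for some peaks in 1358 (69.7%) and for none in 282 (14.5%). The strongest peak was the first or the last of its group in 60.9% of groups, while such end positions made up 59.8% of the peaks. The strongest peak thus sat at an end about as often as any peak did.

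The largest groups away from centromeres were of 2 kinds, judged by their signals. The group with most peaks, chr3:178440467-178454391, held 10 peaks in 13.9 kb with signals of 2.89, 3.36, 3.03, 3.30, 3.32, 4.43, 2.99, 2.89, 2.30 and 3.91 in order along the chromosome. All 10 were weak to moderate, 5 had a q-value of 0.05 or less, and none was in the top 10%. The next, chr7:1260536-1281685, held 9 peaks with signals from 2.13 to 3.77. Groups of 8 peaks with signals in the same low range lay at chr4:185727361-185751846 (2.16 to 4.91), chr5:2231821-2247139 (3.10 to 4.37), chr10:78474437-78486095 (2.58 to 4.27) and chr2:89867356-89879333 (2.0 to 3.11). None of these 6 groups held a KLF5 peak of either line.

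The last of them, on chromosome 2, lay 2.44 Mb from the centromere gap and so just outside the 2 Mb limit, and it counts as near with a limit of 5 Mb.

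Other large groups combined strong and weak peaks. At chr3:5017831-5030521, 8 peaks in 12.7 kb had signals of 15.1, 4.09, 13.5, 4.60, 3.85, 20.9, 4.83 and 3.87. All 8 had a q-value of 0.05 or less, and the 3 strong ones were separated by weaker ones. The span of this group held 2 Calu-3 KLF5 peaks and 1 16HBE14o- KLF5 peak, but none of them overlapped a CEBPB peak. The 7 peaks of chr7:134047667-134055391 had signals of 13.7, 2.66, 2.99, 2.45, 10.2, 8.20 and 2.65, so 3 strong peaks stood among 4 weak ones, and 1 Calu-3 KLF5 peak lay between them. The 7 peaks of chr15:96795359-96814092 had signals of 3.42, 2.40, 3.15, 4.91, 13.2, 3.63 and 11.8, with no KLF5 peak. At chr7:130597870-130610469 the signals of the 7 peaks fell from 8.54 at the second to 2.20 at the last.

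The highest signals within dense groups belonged to small groups with 1 dominant peak. At chr4:154572102-154583062 the 4 peaks had signals of 2.78, 3.10, 11 and 61.3, and the last is the highest of all autosomal CEBPB peaks. At chr12:129423427-129427951 a peak of 46.5 was followed by peaks of 3.13, 4.19 and 3.29. Neither group held a KLF5 peak. The group chr13:73632702-73638086 differed from these in having 2 peaks of comparable strength, 30.2 and 39.6, between weaker peaks of 3.17 and 5.95, and its median signal of 18.1 was the highest of any group away from centromeres. At chr14:74409819-74413631 the dominant peak of 38.5 overlapped a Calu-3 KLF5 peak at percentile 80.3 of the KLF5 list, and the other peaks, 6.10 and 3.17, overlapped none. At chr2:47192880-47198145 the dominant peak of 37.2 overlapped a Calu-3 KLF5 peak at percentile 96.7, beside CEBPB peaks of 3.36 and 7.71. In both groups the KLF5 peak lay on the strongest CEBPB peak alone.

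Next by median signal after the group on chromosome 13 came chr15:75956397-75958852 with signals of 3.01, 13.6 and 17.8, the last with a Calu-3 KLF5 peak. It was followed by chr5:172199392-172204825 with 13.4, 14.7 and 2.79, and by chr9:28779298-28783719 with 13.2, 26.4 and 4.37. The most compact of these, chr20:821759-822971, held signals of 20.0, 4.76 and 12.4 within 1.21 kb, and its last peak overlapped a 16HBE14o- KLF5 peak. Each of these 4 groups had 2 strong peaks and 1 weaker peak.

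**Figure D2:**
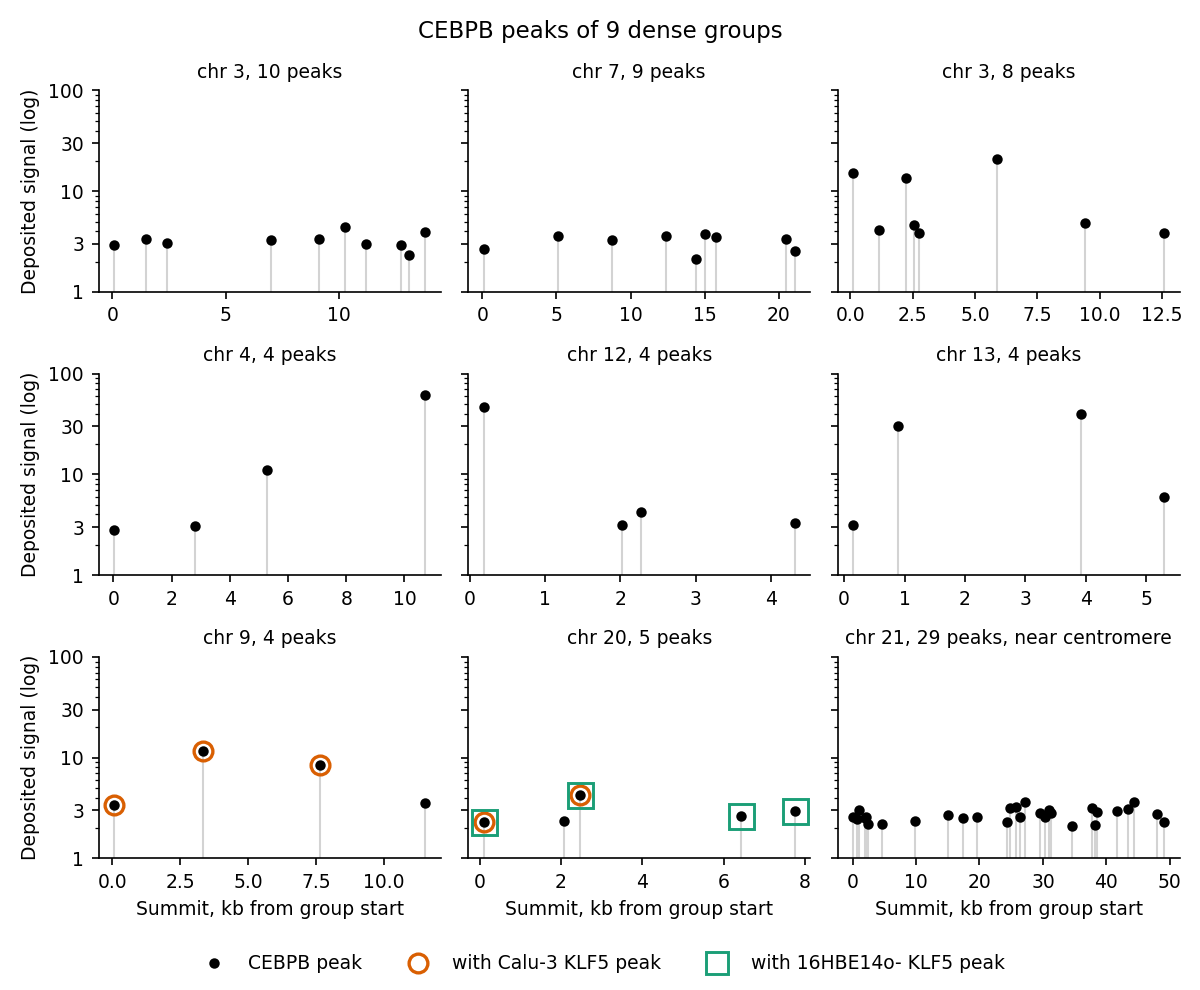
Deposited CEBPB signal (vertical axis, log scale) of each peak of 9 dense groups against the position of its summit from the start of the group (horizontal axis, kb). Circles and squares around a point mark an overlapping Calu-3 or 16HBE14o- KLF5 peak. The top row holds the 3 largest groups away from centromeres, the middle row the 3 with the highest signal, with single peaks up to 61.3, and the bottom row the groups with most peaks overlapped by Calu-3 KLF5 (chromosome 9) and 16HBE14o- KLF5 (chromosome 20), and the 29 low peaks of the largest group near a centromere (chromosome 21).

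KLF5 positions come from other lists and were not used by the rule. A Calu-3 KLF5 peak overlapped 94 of the 6510 dense CEBPB peaks away from centromeres by at least 1 bp (1.44%, 1.17 to 1.76), against 0.957% of all autosomal CEBPB peaks and 0.911% (0.836 to 0.991) of the lone and paired peaks away from centromeres. For 16HBE14o- KLF5 the count was 82 of 6510 (1.26%, 1.00 to 1.56), against 1.03% of all autosomal and 1.01% (0.933 to 1.10) of the lone and paired peaks. The interval for dense peaks thus lay above that for lone and paired peaks with Calu-3 KLF5 and overlapped it with 16HBE14o- KLF5. Taken alone, autosomal pairs had 1.11% (0.951 to 1.30) with Calu-3 KLF5 and 1.42% (1.24 to 1.63) with 16HBE14o- KLF5. Both of these intervals overlapped those of dense peaks. In groups of 3, 4 and 5 or more, the shares were 1.32%, 2.06% and 1.09% with Calu-3 KLF5. With 16HBE14o- KLF5 they were 0.986%, 1.91% and 1.77%. Whether the 2 lines differ in the share of dense peaks was not tested, and cell line and antibody cannot be fully told apart in these lists. When only CEBPB peaks of q at most 0.05 were joined into groups, the Calu-3 share was 3.35% against 1.84% of all such peaks. In that setting the 16HBE14o- share was 1.94% against 1.49%. The intervals for dense peaks were 2.46 to 4.46 with Calu-3 KLF5 and 1.27 to 2.83 with 16HBE14o- KLF5. When summits within 100 bp were required, the Calu-3 share was 1.23% (0.976 to 1.53) against 0.824% of all autosomal peaks. The 16HBE14o- share was then 0.676% (0.492 to 0.906) against 0.652%. This 16HBE14o- interval included the share of all autosomal peaks, as did the one at 1 bp. KLF5 peaks of both lines overlapped 16 dense peaks away from centromeres (0.246%, 0.141 to 0.399). The share was 0.204% of all autosomal CEBPB peaks and 0.196% of the lone and paired peaks away from centromeres.

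At the level of groups, 90 of the 1947 groups away from centromeres (4.62%, 3.73 to 5.65) held a Calu-3 KLF5 peak anywhere in their span, 90 held a 16HBE14o- KLF5 peak, 25 held both kinds and 1792 (92.0%) held neither. More than 1 KLF5 peak was found in 16 groups with the Calu-3 list and in 12 with the 16HBE14o- list. Seen from KLF5, 113 of the 1501 autosomal Calu-3 peaks (7.53%, 6.24 to 8.98) and 108 of the 3216 autosomal 16HBE14o- peaks (3.36%, 2.76 to 4.04) lay inside a dense group away from centromeres. A group spans several peaks and the gaps between them, so these shares cannot be set against the shares per peak. Of the 648 autosomal CEBPB peaks with Calu-3 KLF5, 94 (14.5%, 11.9 to 17.5) were dense and away from centromeres. The count was 82 of 699 (11.7%, 9.44 to 14.4) with 16HBE14o- KLF5, against 9.62% of all autosomal CEBPB peaks.

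Calu-3 KLF5 overlapped the strongest CEBPB peak of a group more often than the others, whereas the shares with 16HBE14o- KLF5 were nearly equal. Of the 1947 strongest peaks away from centromeres, 63 overlapped a Calu-3 KLF5 peak (3.24%, 2.5 to 4.12), compared with 31 of the 4563 remaining peaks (0.679%, 0.462 to 0.963). With 16HBE14o- KLF5 the counts were 25 (1.28%, 0.833 to 1.89) and 57 (1.25%, 0.947 to 1.62). Counted by group, 63 of the 80 groups in which Calu-3 KLF5 overlapped a CEBPB peak (78.8%) had it on the strongest one, against 25 of 67 (37.3%) for 16HBE14o- KLF5. For scale, strongest peaks made up 1947 of the 6510 dense peaks away from centromeres. More than 1 CEBPB peak was overlapped in 13 of the 80 groups and in 11 of the 67. The difference between the lines was not tested.

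The share with Calu-3 KLF5 also moved with the signal of the CEBPB peaks, whose part in the result above was not tested beyond the ranges given here. Among dense peaks away from centromeres, the share with Calu-3 KLF5 was 0.422% (0.225 to 0.720) in the lower 50% of the list by signal, 8.15% (5.52 to 11.5) between percentiles 95 and 99, and 31.2% (29 of 93, 22 to 41.6) in the highest 1%. Lone and paired peaks of the same ranks had shares of 0.247% (0.195 to 0.310), 7.12% (6.10 to 8.26) and 22.5% (19.1 to 26.1). The intervals of dense and other peaks overlapped in each of the 6 ranges of signal examined. Peaks were also wider at higher signal. From the lower 50% to the highest 1%, the median width went from 141 to 319 bp in dense peaks. It went from 137 to 310 bp in lone and paired peaks. The part of peak width in the shares with KLF5 was not tested. With 16HBE14o- KLF5 the share of dense peaks was 1.27% (0.901 to 1.73) in the lower 50%. There it lay above the 0.732% (0.639 to 0.835) of lone and paired peaks. The share was 0.797% between percentiles 50 and 75, 1.34% between 75 and 90 and 1.32% between 90 and 95. It covered 5 of 356 peaks between 95 and 99, and reached 7.53% (7 of 93, 3.08 to 14.9) in the highest 1%. Lone and paired peaks had larger shares between percentiles 50 and 75 (0.881%), 90 and 95 (2.09%) and 95 and 99 (2.46%). They had smaller shares between 75 and 90 (1.15%) and in the highest 1% (5.71%). Above the lower 50%, the intervals of dense and other peaks overlapped in each range.

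Groups with strong CEBPB peaks held KLF5 more often than groups without. A Calu-3 KLF5 peak lay in 1.27% (0.741 to 2.02) of the 1340 groups with no peak in the top 10%, in 9.81% (7.13 to 13.1) of the 418 with 1, in 14.4% (9.34 to 20.8) of the 160 with 2, and in 9 of the 29 with 3 or more (31.0%, 15.3 to 50.8). For 16HBE14o- KLF5 the shares were 3.06%, 7.66%, 7.50% and 17.2% (5 of 29, 5.85 to 35.8) in the same order. The 29 groups were also longer, with a median span of 7441 bp against 5312 bp for groups with none in the top 10%, and the part of span in these shares was not tested.

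**Figure D3:**
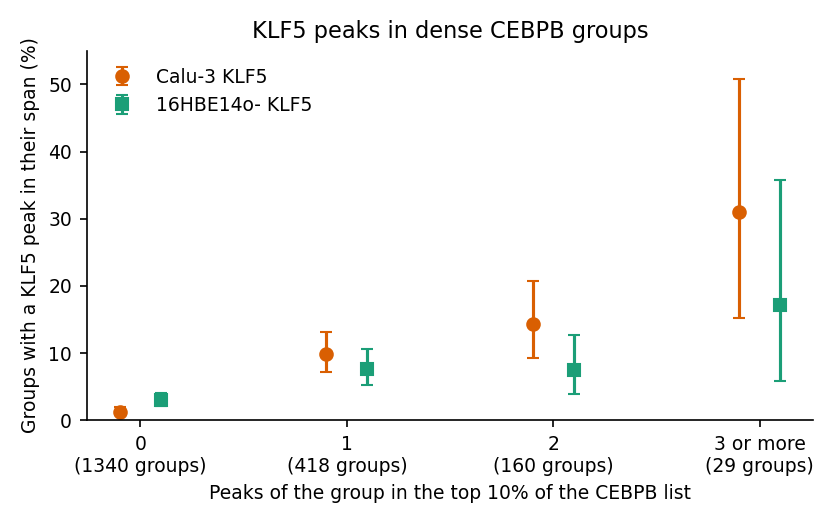
Share of dense groups away from centromeres with a KLF5 peak in their span (vertical axis, %) by the number of their CEBPB peaks in the top 10% of the list (horizontal axis), for Calu-3 (circles) and 16HBE14o- (squares) KLF5. Bars are exact 95% intervals for counting error. The Calu-3 share goes from 1.27% to 31.0%, with a wide interval for the 29 groups on the right.

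These 29 groups included 4 each on chromosomes 7 and 9 and 3 each on chromosomes 3, 8 and 11. Besides those already given, chr6:3403507-3419114 had 4 of its 5 peaks in the top 10% (median signal 7.94, highest 17.8), chr4:74964992-74976207 had 4 of 6 (highest 12.9) and chr9:94181513-94187093 had 4 of 6 (highest 19.4). Of these 3, the one on chromosome 9 held a Calu-3 KLF5 peak and the others held none. These 3 were singled out after their values were seen.

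The group with most peaks overlapped by Calu-3 KLF5 was chr9:130324343-130335910, where 3 of the 4 CEBPB peaks, with signals of 3.4, 11.6 and 8.45, overlapped KLF5 peaks at percentiles 29.7, 6.82 and 56.1 of the Calu-3 list. The fourth CEBPB peak, at 3.57, overlapped none. In all, 13 groups away from centromeres had 2 or more such peaks, and 5 are named here, ties being settled by the highest CEBPB signal. Groups with 2 such peaks included chr19:4058373-4065913, whose CEBPB signals of 14, 4.32, 10.2 and 15.4 were accompanied by KLF5 at the first and the third. They also included chr15:93345326-93355065 (11.1 and 13.9 with KLF5, 3.20 and 3.86 without), chr4:40619988-40626060 (2.41 and 25 with, 5.15 without) and chr10:74075383-74079987 (15.7 and 2.71 with, 3.45 without). The KLF5 peaks of these groups ranged from percentile 3.05 to 96.3 of their list, so they were not all strong KLF5 sites.

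Of the 11 groups with 2 or more peaks overlapped by 16HBE14o- KLF5, 5 are likewise named, and the first 3 of these held CEBPB signals of at most 5.61. At chr20:60934578-60942519, 4 of 5 CEBPB peaks overlapped a 16HBE14o- KLF5 peak, and the 5 CEBPB signals were 2.27, 2.33, 4.30, 2.64 and 2.95. The q-value was at most 0.05 for only 2 of these CEBPB peaks. The third overlapped KLF5 peaks at percentiles 98.7 (Calu-3 list) and 99.23 (16HBE14o- list), so a strong KLF5 site of both lines lay in a group of weak CEBPB peaks. At chr8:144815762-144821671 all 3 CEBPB peaks (2.61, 1.91 and 5.61) overlapped 16HBE14o- KLF5, and the last also overlapped Calu-3 KLF5. At chr6:108879668-108884051, 3 of 4 CEBPB peaks (3.17, 3.04 and 3.86, but not 4.94) overlapped 16HBE14o- KLF5, with no Calu-3 KLF5 peak in the group. Each of the other leading groups, both on chromosome 20, had 2 such peaks. One was chr20:48384791-48392120, with CEBPB signals of 26.2, 5.32 and 6.80 and both KLF5 lists at the first. In the other, chr20:39945649-39950621, 1 16HBE14o- KLF5 peak overlapped both CEBPB peaks concerned, 2.5 and 3.62, and not the strongest, 18.1.

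In 15 groups away from centromeres all 3 lists overlapped a CEBPB peak of the group. Ranked by the mean percentile over the lists, the first were the groups on chromosomes 20 and 8 given above at 60934578 and 144815762. The next were chr7:985541-997875 (CEBPB signals of 2.71, 2.23, 3.89, 7.98 and 4.48, with KLF5 of both lines at the first and of Calu-3 also at the third), chr2:74206962-74212566 (3.44, 3.26 and 2.86, both at the second) and chr2:11879185-11886898 (11.6, 2.5 and 4.33, both at the third). In none of these last 3 groups did KLF5 overlap the strongest CEBPB peak.

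Dense groups near centromeres were built of weak peaks. Their share rose towards the centromere gap, since 263 of the 683 CEBPB peaks within 0.5 Mb of it were in dense groups (38.5%, 34.8 to 42.3), 17.1% (13.6 to 21) between 0.5 and 1 Mb, 10.6% between 1 and 2 Mb and 9.86% beyond 5 Mb. The median signal of dense peaks was 2.77, 3.10, 3.05 and 3.22 in the same ranges, and the share in the top 10% was 0.760%, 7.04%, 7.14% and 12.8%. Lone and paired peaks near centromeres had a median signal of 3.17, the same as those elsewhere, although 6.53% (5.32 to 7.92) of them were in the top 10% against 9.74% elsewhere. By chromosome, the median signal of dense peaks near the centromere ran from 1.41 on chromosome 6, with 1 group, to 3.56 on chromosome 12, with 5. It was above the 3.17 of the whole list on chromosomes 11, 12 and 17. The part of repeated sequence in these groups was not tested.

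**Figure D4:**
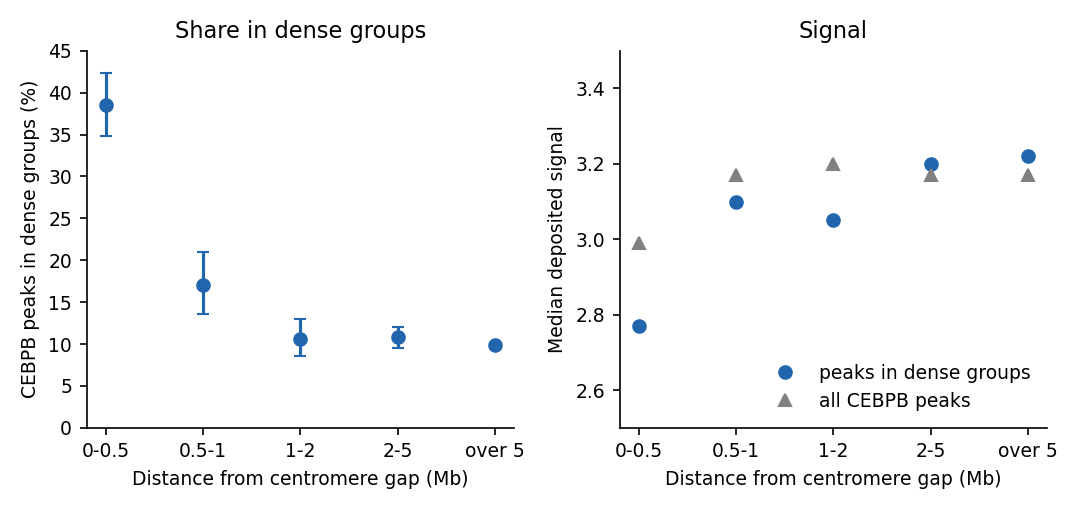
Share of CEBPB peaks in dense groups with exact 95% intervals for counting error (left, %) and median deposited signal (right) by distance from the centromere gap (horizontal axis, Mb). Within 0.5 Mb the share is 38.5% and the median signal of dense peaks is 2.77, the lowest of the 5 ranges.

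The largest group, chr21:10807083-10856214, held 29 peaks in 49.1 kb with signals from 2.09 to 3.64 and a median of 2.60, and 9 of them had a q-value of 0.05 or less. Its neighbours chr21:10773536-10796595 with 18 peaks (2.06 to 3.75) and chr21:10741397-10759627 with 9 peaks (2.36 to 4.39) lay within 0.5 Mb of the same gap. Chromosome 21 thus had 76 of its 103 dense peaks near the centromere, in 9 groups. The other groups of 9 peaks near a centromere were chr8:43486021-43499450 (2.16 to 3.57) and chr16:33951191-33965060 (1.61 to 3.43). None of these 5 groups held a KLF5 peak or a CEBPB peak of the top 10%. In the group on chromosome 16 the −log10 q-value reached 16.7 despite the low signals.

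Among dense peaks, low signal with a low q-value was more frequent near centromeres. Of the 278 dense peaks there in the lower 50% of the list by signal, 92 had a q-value of 0.05 or less (33.1%, 27.6 to 39.0). The share was 7.43% (6.53 to 8.41) for dense peaks of the same ranks away from centromeres, 4.81% (3.45 to 6.52) for lone and paired peaks near them and 4.27% (4.04 to 4.50) for lone and paired peaks elsewhere. Signal and q-value thus ranked the dense peaks near centromeres differently. How the authors computed the 2 values was not given in the sources used here.

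Few groups held KLF5 near centromeres, as was also the case away from them. A Calu-3 KLF5 peak lay in the span of 3 of the 98 groups near centromeres (3.06%, 0.636 to 8.69). A 16HBE14o- KLF5 peak lay in 4 (4.08%, 1.12 to 10.1), and away from centromeres the share was 4.62% for each list. A Calu-3 KLF5 peak overlapped 6 of the 418 dense peaks near centromeres (1.44%, 0.529 to 3.10) and a 16HBE14o- KLF5 peak 3 (0.718%, 0.148 to 2.08), in 3 groups each. Both intervals for peaks include the shares of all autosomal CEBPB peaks, 0.957% and 1.03%, and of all CEBPB peaks near centromeres, 0.742% and 0.900%. They also include the shares of dense peaks away from centromeres, 1.44% and 1.26%. The group chr20:30190753-30198904, 0.734 Mb from the gap, held 5 CEBPB peaks with signals up to 18, of which 3 overlapped Calu-3 KLF5 and 1 overlapped 16HBE14o- KLF5. At chr20:26188769-26190310, 0.0207 Mb from the gap, 2 of 3 CEBPB peaks of at most 2.77 overlapped Calu-3 KLF5. The third was chr19:29589884-29595873, with 1 CEBPB peak overlapped by each list and a highest signal of 7.85. The highest CEBPB signal within a dense group near a centromere, 26.6, was found at chr1:120322638-120327465, 1.16 Mb from the gap. Distance alone thus also placed some strong peaks in this class.

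Dense groups were unevenly spread over the chromosomes. Away from centromeres, the share of a chromosome's peaks that lay in dense groups was highest on chromosomes 3 (943 peaks, 12.8%, 12 to 13.6), 5 (783 peaks, 12.7%, 11.9 to 13.5) and 19 (232 peaks, 12.6%, 11.1 to 14.2). It was lowest on chromosomes 15 (5.13%, 4.01 to 6.45), 13 (5.75%, 4.14 to 7.74) and 6 (5.82%, 4.89 to 6.87). Chromosomes with more CEBPB peaks per Mb had larger shares, with a Spearman rho of 0.81 over the 22 chromosomes. This is a description, since a group needs peaks that lie close together and both measures come from the same list. Beyond 150 Mb on chromosome 3, 373 of 2416 peaks were dense (15.4%, 14 to 16.9), with a median signal of 3.03, against 11.5% on the rest of that chromosome.

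**Figure D5:**
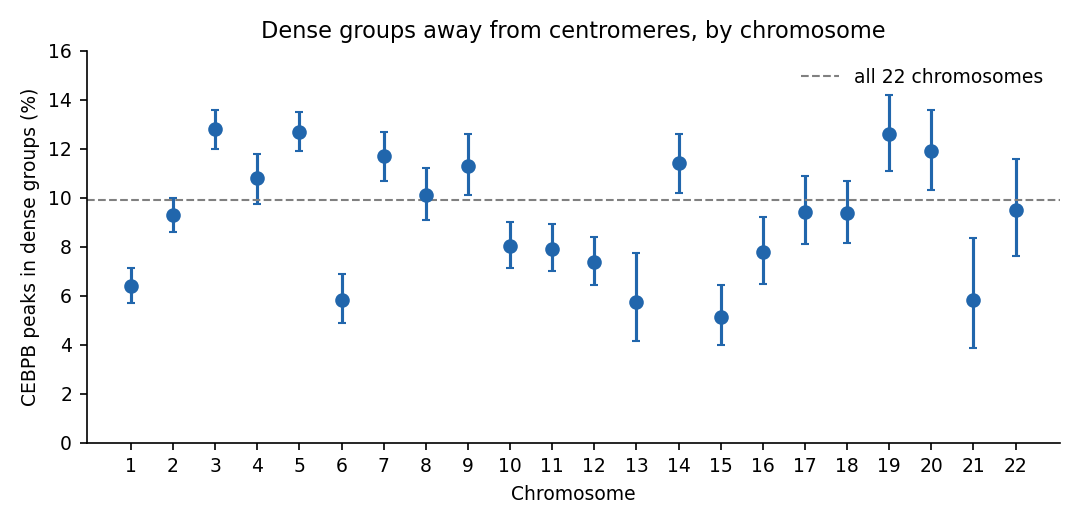
Share of each autosome's CEBPB peaks that lay in dense groups away from centromeres (points, %) with exact 95% intervals for counting error, and the share over all 22 (dashed line). Chromosomes 3, 5 and 19 are the highest, at 12.6% to 12.8%, and chromosome 15 is the lowest, at 5.13%.

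Counted in windows of 1 Mb, and leaving out groups near centromeres, the start of chromosome 5 held the most dense groups. In its first 3 Mb, 160 of 332 CEBPB peaks lay in 37 dense groups (48.2%, 42.7 to 53.7), whereas 10.7% of the peaks on the rest of the chromosome did. The 1 Mb window from 2 to 3 Mb held 17 groups with 79 of its 135 peaks, and the windows before it held 12 and 8 groups. No other window held more than 8 groups away from centromeres, and of the 1129 windows with such a group 671 held 1 and 87 held 4 or more. The dense peaks of the first 3 Mb were all weak to moderate, with a median signal of 3.10, a highest signal of 5.41 and 0 in the top 10%. A q-value of 0.05 or less was given to 35.0% of them. That stretch held 1 Calu-3 and 6 16HBE14o- KLF5 peaks in all. This stretch was chosen after the windows were seen.

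Some windows with 6 or 7 groups held strong peaks. From 126 to 127 Mb on chromosome 8, 7 groups with 26 peaks reached a signal of 24.4, and from 154 to 155 Mb on chromosome 4, 6 groups with 23 peaks reached 61.3. In contrast, 8 groups with 29 peaks from 53 to 54 Mb on chromosome 7 reached only 3.88. Within 1 Mb of the ends of the listed part of each chromosome lay 61 groups with 212 of 1364 peaks (15.5%). Of all autosomal peaks, 9.62% were dense and away from centromeres. The 61 groups included 8 with 29 of 89 peaks from the first 1 Mb of chromosome 5, already given above. The 212 peaks had a median signal of 3.17 and 8.49% of them were in the top 10%.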

How the data were processed

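One deposited narrowPeak list per group was used, made by the authors from both samples of the group, with hg19 coordinates per the file headers. The headers name the lists as irreproducible discovery rate (IDR) peaks. For the aligner, peak caller, control and filters, nothing is given in the sources used here. The columns used were the deposited signal, the deposited −log10 of the p-value and of the q-value, and the summit. The deposited score column was read and not used for any result.

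CEBPB peaks of the autosomes were joined when the gap was under 5 kb, and runs of 3 or more were kept. A total of 1700 peaks on chromosomes X and Y were left out. The centromere gap was the longest stretch of at least 2 Mb without a peak of any of the 3 lists. On chromosomes 14 and 22, which have none, it was the stretch before the first listed peak. On chromosomes 13 and 15 the longest stretch lay elsewhere, so the stretch before the first peak was used there too, a change made after seeing the data that moved 0 dense groups. KLF5 overlap needed 1 bp. Percentiles rank the deposited signal within its list.

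The members, lists and comparisons were chosen with earlier results of these data known. Named groups are those with most peaks (10 away from and 5 near centromeres), the highest and the highest median signal (5 each), most peaks with KLF5 of each line (5 each), and the first 5 with peaks of all 3 lists. The comparisons by range of signal, by distance, by window and by number of strong peaks were added after seeing the data. No genes or sequences are given, since the reference tables held are of another build. No test was made across peaks, since each group of samples gave 1 list. The computation used numpy 2.4.6, pandas 2.3.3, scipy 1.17.1 and matplotlib 3.10.9 under Python 3.11.15, and the joining and overlap steps were tested on simulated data.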

Additional observations from a re-analysis of the deposited data

How the results depend on the processing

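No replicate could be left out, because each list was made from both samples. No paired analysis was possible because the 2 samples of a group share 1 list and no test was made. The number of dense groups and of their peaks depended on the rule. It was 652 groups with 2111 peaks at a gap of 2 kb, 4451 with 16230 at 10 kb, 499 with 2290 for groups of 4 or more, 444 with 1467 when only peaks of q at most 0.05 were joined, and 527 with 1701 in the upper 50% of the list by signal.

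The share of dense peaks near centromeres, 6.03%, was 9.62% at 2 kb, 4.40% at 10 kb, 10.7% for groups of 4 or more, 8.52% with the q-value limit, 3.0% in the upper 50% by signal, 4.82% within 1 Mb, 9.97% within 5 Mb and 6.98% without chromosome 3. The Calu-3 KLF5 share, 1.44%, moved to 3.35% with the q-value limit (1.84% of all such autosomal peaks) and 2.24% in the upper 50% (1.49%). The 16HBE14o- KLF5 share, 1.26%, was 1.94% at 2 kb, 1.86% for groups of 4 or more, 1.94% with the CEBPB q-value limit (1.49% of all such peaks), 0.676% for summits within 100 bp (0.652% of all autosomal peaks) and 0.998% with KLF5 peaks of q 0.05 or less (0.894%). The share in the top 10%, 12.7%, was 13.6% at 2 kb, 11.3% at 10 kb, 33.6% with the q-value limit (21.5% of all such peaks) and 27.3% in the upper 50% (18%). The share of dense peaks on chromosome 3, 14.5% against 11.2% of all CEBPB peaks away from centromeres, was 15.9% with the q-value limit and 11.8% in the upper 50%. The share of all peaks on chromosome 3 was not computed for these 2 settings. The cause of these shifts was not tested. The other 53 of 84 recomputed values stayed within the interval of the value reported, or within 1.5 times a count. Some of these could not have moved and say nothing about stability. Merging overlapping or adjoining CEBPB peaks joined 0 peaks, so it returned the reported values. Using the longest peak-free stretch on chromosomes 13 and 15 moved 0 dense groups and also returned them. Unknown depth limits every absence of a peak.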
